A study of Mus musculus with 6 samples.

Results

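Adipokine genes were examined in RNA of tissue labelled as mouse aorta. Adipokines are proteins that fat cells, or other cells of fat tissue, release into blood or onto neighbouring cells. The aorta is wrapped in perivascular fat, which is largely brown-like around the thoracic aorta and mostly white around the abdominal aorta, so RNA of a dissected aorta usually holds some fat transcripts. Adiponectin and leptin are made almost wholly by adipocytes, resistin is an adipocyte product in mice, and angiotensinogen is the substrate from which renin starts the angiotensin cascade.

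The genes were chosen by name. They were Adipoq (adiponectin), Lep (leptin), Retn (resistin), Cfd (adipsin), Nrg4 (neuregulin 4), Rbp4 (retinol binding protein 4), Agt (angiotensinogen) and Retnla (resistin like alpha). Of these 8 genes, 7 had a probe set with a single gene symbol, among 19938 genes so named on the array. Cfd had none and was not analysed here. Each of the 7 had 1 probe set, so no choice among probe sets was made. Levels are log2 signals as deposited, and a difference of 1 on this scale is 2-fold.

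The 6 one-colour arrays were 3 of Trail knockout mice and 3 of wild-type mice. All 6 samples are labelled as strain C57Bl6/J, as aorta and as 6 weeks old. The Trail-/- mice came from Amgen, per the design text. No source used here gives the sex, the structure of the allele, the segment of aorta taken or any pooling of animals. Signals of different probe sets are not set against each other as amounts, since no scale per transcript length exists for these values.

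Tnfsf10, which encodes TRAIL, gave 5.02, 4.48 and 4.09 on the arrays labelled knockout 1, 2 and 3. It gave 8.42, 4.90 and 4.85 on those labelled wild type 1, 2 and 3. The arrays labelled wild type 2 and 3 were thus within 0.81 of every knockout array for the deleted gene, and it was not known if the deletion covers this probe set. All group names below are the labels' names. The array labelled wild type 1 also stood apart across the whole table, with a Pearson r across probe sets of 0.703 to 0.732 with the others, whereas r among the other 5 was 0.938 to 0.993. In the vascular smooth muscle list of 12 genes, the actin gene Acta2 was bright on all 6 arrays (12.27 to 12.63), but the list was not even. On wild type 1, 2 of the 12 were over 2-fold below every other array and 1 was over 2-fold above. Des gave 7.86 there and 11.2 to 11.6 elsewhere, and Actg2 gave 8.03 and 10.67 to 11.39. Itga8 gave 11.14 there and 6.92 to 7.90 elsewhere. The part of vessel wall in each array was not tested. The skeletal muscle list had a median of 5.71 on wild type 1 and 10.80 to 11.47 on the other 5 arrays. The stratified squamous epithelium list had 4.92 there and 10.10 to 10.60 on the other 5. The stomach epithelium list had a median of 12.27 on knockout 2, 6.71 on wild type 3 and 4.93 to 5.47 on the 4 others. Every result is therefore given with and without wild type 1.

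For 5 of the 7 genes, Adipoq, Retn, Rbp4, Nrg4 and Lep, the array labelled wild type 1 held the highest signal, and the other 2 wild-type arrays were at or near the low end. Agt was lowest on that array, and Retnla was bright on all 6, with wild type 1 level with the mean of the rest. No adipokine gene passed the test between knockout and wild type. On the 5 arrays without wild type 1, Adipoq was 2.56-fold and Retn 2.51-fold higher in the knockout on average, with high values on knockout 1 and 2 and not on knockout 3, and these differences did not pass either.

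Promoters are shown for genes with different behaviour on wild type 1: Adipoq, Nrg4 and Lep (high), Agt (low) and Retnla (level). They are the 250 bases before the RefSeq start in build GRCm38.p6, 5′ to 3′ on the gene's strand. The windows lie at chr16:23146286-23146535 for Adipoq, chr6:29059971-29060220 for Lep and chr16:48842359-48842608 for Retnla, on the plus strand. They lie at chr9:55283626-55283875 for Nrg4 and chr8:124569707-124569956 for Agt, on the minus strand. Coordinates are RefSeq's, since no build is stated for the array. Capitals mark matches, on either strand, to the C/EBP core TTGCNNAA, the TATA box TATAAA, the E-box CACGTG and the nuclear receptor half-site AGGTCA, which reads TGACCT where it lies on the other strand. All 7 measured genes had a window in the RefSeq table.
Adipoq: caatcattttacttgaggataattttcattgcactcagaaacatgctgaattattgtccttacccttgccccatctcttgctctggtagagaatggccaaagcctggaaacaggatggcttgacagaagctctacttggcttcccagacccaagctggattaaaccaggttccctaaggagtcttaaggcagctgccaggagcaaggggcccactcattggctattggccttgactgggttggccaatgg
Nrg4: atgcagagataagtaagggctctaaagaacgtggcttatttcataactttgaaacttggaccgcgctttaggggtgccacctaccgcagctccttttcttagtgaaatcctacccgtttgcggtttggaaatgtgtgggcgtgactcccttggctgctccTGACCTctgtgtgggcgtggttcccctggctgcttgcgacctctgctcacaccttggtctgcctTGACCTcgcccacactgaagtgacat
Lep: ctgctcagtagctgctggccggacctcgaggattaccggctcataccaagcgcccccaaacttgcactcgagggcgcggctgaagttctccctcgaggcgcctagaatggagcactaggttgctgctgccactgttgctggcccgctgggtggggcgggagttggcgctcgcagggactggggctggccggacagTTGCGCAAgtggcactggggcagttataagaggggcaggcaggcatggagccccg
Agt: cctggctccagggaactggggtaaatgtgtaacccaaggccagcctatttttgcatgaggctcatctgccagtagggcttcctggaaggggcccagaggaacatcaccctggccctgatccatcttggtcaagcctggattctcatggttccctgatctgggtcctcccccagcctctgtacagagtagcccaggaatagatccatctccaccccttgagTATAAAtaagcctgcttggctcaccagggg
Retnla: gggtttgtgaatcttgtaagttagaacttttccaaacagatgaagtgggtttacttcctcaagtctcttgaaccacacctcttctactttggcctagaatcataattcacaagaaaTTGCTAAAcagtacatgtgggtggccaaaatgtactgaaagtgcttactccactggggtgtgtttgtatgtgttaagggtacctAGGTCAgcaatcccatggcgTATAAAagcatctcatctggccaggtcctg
The Adipoq window held no match to these letters. The Nrg4 window held 2 half-sites, starting 90 and 26 bases before the start. The Lep window held the C/EBP core 55 bases before the start, and the Agt window a TATA box 30 bases before it. The Retnla window held the C/EBP core, a half-site and a TATA box, starting 134, 50 and 30 bases before the start, and no match overlapped another. Of 32851 windows of this length, 9.56% held the C/EBP core, 12.4% the TATA box, 6.02% the E-box and 14.02% the half-site. Of the windows not shown, that of Retn held no match, and that of Rbp4 start site 2 held a C/EBP core and a TATA box. A match is a run of letters and not a shown binding site. No link between matches and signal was tested.

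Adipoq encodes the most abundant hormone of fat tissue, which acts through AdipoR1 and AdipoR2. It gave 9.23, 8.38 and 7.45 on knockout 1, 2 and 3, against 11.52, 6.54 and 7.46 on wild type 1, 2 and 3. The highest and the lowest of the 6 values were both wild type, and knockout 3 and wild type 3 were nearly equal. The mean was 8.35 ± 0.89 in the knockout group and 8.504 ± 2.65 in the wild-type group (SD, n = 3 each). Without wild type 1, the mean of wild type 2 and 3 was 6.997. The knockout minus wild-type difference was -0.15 (SE 1.34) on 6 arrays, with a limma adjusted p of 0.977. It was 1.36 (SE 0.51, 95% interval 0.13 to 2.58) on 5 arrays, which is 2.56-fold higher in the knockout, with a limma adjusted p of 0.997. The Adipoq difference was thus negative with wild type 1 and positive without it, and it was also positive, at 0.30, with wild type 1 kept and knockout 3 left out. None of these values passed the test.

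Retn encodes resistin, a small secreted cysteine-rich protein. Its signals were 8.91, 8.47 and 7.03 on the knockout arrays, against 10.67, 6.66 and 6.96 on the wild-type arrays. Wild type 1 was again the highest array and wild type 2 the lowest. The means were 8.14 ± 0.98 in the knockout and 8.09 ± 2.23 in the wild type (SD, n = 3 each), and wild type 2 and 3 alone averaged 6.81. The difference was 0.04 (SE 1.17) on 6 arrays, with a limma adjusted p of 0.993, and 1.33 (SE 0.51, 95% interval 0.11 to 2.54) on 5 arrays, with a limma adjusted p of 0.997. On the 5 arrays Retn was the 1 gene of the 5 tested whose groups did not overlap, by a margin of 0.07 between knockout 3 and wild type 3. Groups did not overlap there for 12.6% of all probe sets tested, and for 5.6% on 6 arrays.

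Rbp4 encodes the plasma carrier of retinol, made by liver and by adipocytes. It gave 6.81, 7.13 and 5.73 on the knockout arrays, against 9.84, 5.79 and 5.86 on the wild-type arrays. Knockout 3 lay just below wild type 2 and 3, while knockout 1 and 2 lay above both. Group means were 6.56 ± 0.73 in the knockout and 7.16 ± 2.32 in the wild type (SD, n = 3 each), with 5.82 for wild type 2 and 3. The difference was -0.61 (SE 1.17, limma adjusted p = 0.928) on 6 arrays and 0.73 (SE 0.38, limma adjusted p = 0.997) on 5.

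The liver was considered because it is the main source of Rbp4 and Agt in the body. The hepatocyte gene Alb gave 5.28 on wild type 1 and 3.96 to 4.62 on the other 5 arrays, and Ahsg, another liver secretory gene, between 4.54 and 5.10. In the hepatocyte list, 5 of 13 measured genes passed the filter on dim probe sets, and the list's median ranged from 5.09 to 5.51 on the knockout arrays and from 4.92 to 5.28 on the wild-type arrays. Ttr, whose protein binds Rbp4 in plasma, gave 8.40 on knockout 2 and 3.96 to 4.42 on the other 5. Apoa1, an apolipoprotein gene of liver and gut, gave 11.62 on knockout 2 and 5.66 to 6.198 elsewhere. Knockout 2 had the highest median of the stomach list, 12.27, followed by wild type 3 with 6.71, where Ttr gave 4.42. Of the list, Hp, Cyp2e1 and Trf were bright and highest on wild type 1. Cyp2e1 and Hp were also among the 5 genes nearest Adipoq over the arrays without wild type 1, as given below. Hp, which encodes haptoglobin, gave 8.14, 7.12 and 6.67 on the knockout arrays, against 11.78, 6.06 and 6.75 on the wild-type arrays. Cyp2e1, a cytochrome P450 gene, gave 9.89, 8.42 and 8.18 on the knockout arrays, against 11.20, 6.90 and 7.82 on the wild-type arrays. Trf, transferrin, gave 10.27 on wild type 1 and 8.02 to 9.67 elsewhere. The part of liver RNA in the Rbp4 and Agt values was not tested.

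Nrg4 encodes an epidermal growth factor-like ligand of the receptor ErbB4 and is enriched in brown fat in mice. It gave 5.11, 5.01 and 4.62 on the knockout arrays, against 9.42, 4.46 and 4.72 on the wild-type arrays. The 5 arrays other than wild type 1 spanned 0.65, and wild type 1 was 19.9-fold above the highest of them in deposited signal. As no detection calls were used, whether Nrg4 was above background on those 5 arrays is not known, so the fold can understate the difference. The means were 4.91 ± 0.26 in the knockout and 6.203 ± 2.79 in the wild type (SD, n = 3 each), and 4.59 for wild type 2 and 3. Nrg4 did not pass the filter on dim probe sets, which left out the lowest 40% by mean over all arrays (a mean under 5.86), so its test comes from a fit with no filter. The difference there was -1.29 (SE 1.31, limma adjusted p = 0.951) on 6 arrays and 0.32 (SE 0.18, limma adjusted p = 0.999) on 5.

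Lep encodes leptin, the hormone by which fat stores signal to the hypothalamus. Its signal was the lowest of the 7 relative to all probe sets, with a mean at the 22.1 percentile of the annotated ones. It gave 4.54, 4.79 and 4.04 on the knockout arrays, against 6.38, 4.13 and 4.31 on the wild-type arrays. Only wild type 1 exceeded 5, and the other 5 arrays spanned 0.75 with knockout and wild-type values interleaved. The means were 4.46 ± 0.38 in the knockout and 4.94 ± 1.25 in the wild type (SD, n = 3 each), and 4.22 for wild type 2 and 3. The difference, also from the fit with no filter, was -0.49 (SE 0.61, limma adjusted p = 0.951) on 6 arrays and 0.23 (SE 0.22, limma adjusted p = 0.999) on 5. As for Nrg4, whether Lep was above background on the 5 dim arrays is not known.

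Agt ran the other way on wild type 1. It gave 6.60, 6.86 and 6.82 on the knockout arrays, against 5.79, 6.60 and 6.67 on the wild-type arrays. The other 5 arrays lay within 0.26 of each other, and wild type 1 was 1.75-fold below the lowest of them. The means were 6.76 ± 0.14 in the knockout and 6.35 ± 0.49 in the wild type (SD, n = 3 each), and 6.64 for wild type 2 and 3. The difference was 0.40 (SE 0.26, 95% interval -0.23 to 1.04, limma adjusted p = 0.921) on 6 arrays. Without wild type 1 it was 0.12 (SE 0.13, 95% interval -0.18 to 0.43, limma adjusted p = 0.997). The positive sign was the same with and without that array, and both intervals include 0.

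Retnla encodes a resistin-like protein that macrophages secrete when alternatively activated and that mouse fat tissue also expresses. It gave 9.997, 9.69 and 10.52 on the knockout arrays, against 10.09, 10.33 and 9.92 on the wild-type arrays. Retnla was bright everywhere, with a mean at the 95.6 percentile of annotated probe sets, and wild type 1 lay inside the range of the other arrays. The means were 10.07 ± 0.42 in the knockout and 10.11 ± 0.21 in the wild type (SD, n = 3 each), and 10.12 for wild type 2 and 3. The difference was -0.04 (SE 0.24, 95% interval -0.64 to 0.56, limma adjusted p = 0.969) on 6 arrays and -0.05 (SE 0.25, 95% interval -0.65 to 0.55, limma adjusted p = 0.997) on 5. Its relatives Retnlg and Retnlb, which belong to the same family, were dim, with 4.59 to 4.92 and 3.42 to 3.87 over all arrays.

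**Figure D1:**
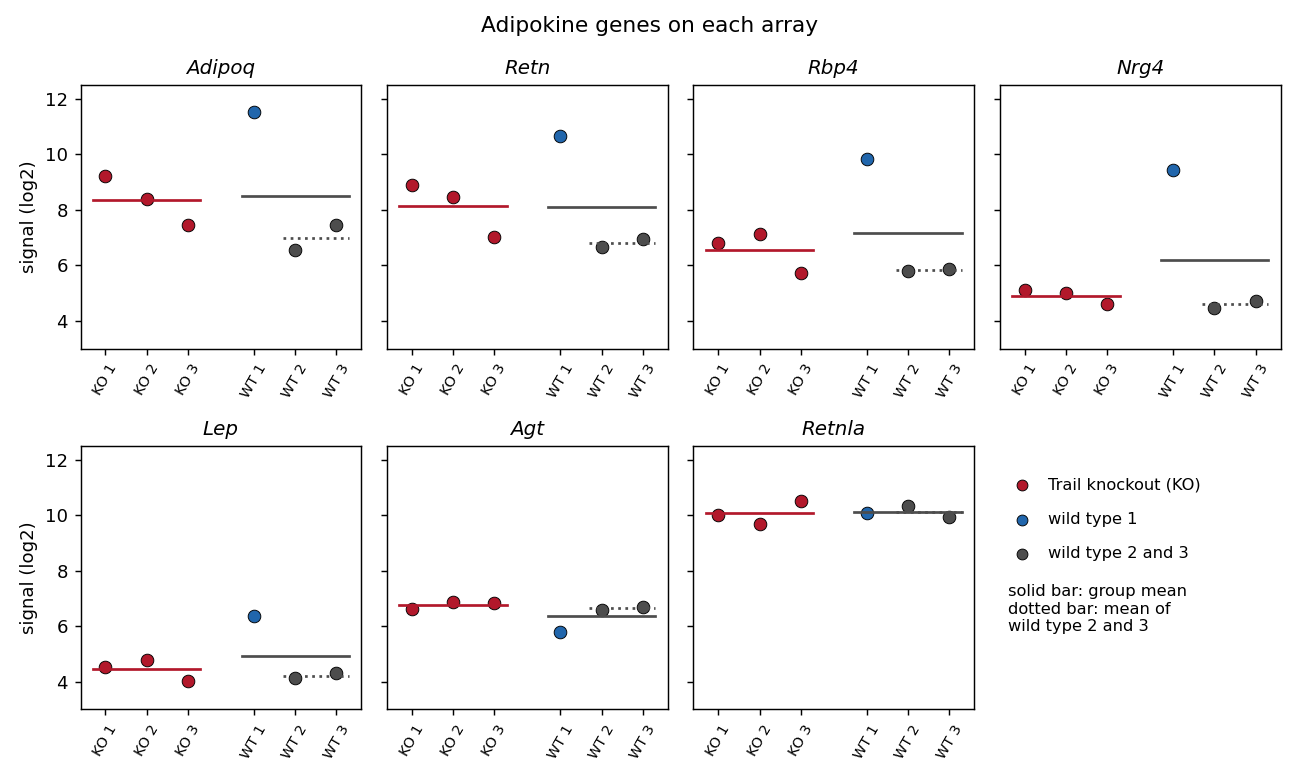
Log2 signal of each of the 7 adipokine genes on the 6 arrays, with knockout (KO, red) left of wild type (WT); solid bars are group means and the dotted bar is the mean of wild type 2 and 3. Wild type 1 (blue) was the highest array for Adipoq, Retn, Rbp4, Nrg4 and Lep, the lowest for Agt and in the middle for Retnla.

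Over the members, 0 of the 5 genes that passed the filter had a limma adjusted p under 0.05 on 6 arrays or on 5, as had 0% of the 14046 probe sets tested in each fit. At an unadjusted p under 0.05, the members counted 0 of 5 on 6 arrays, against 0.634% of all probe sets. On 5 arrays they counted 2 of 5, Adipoq and Retn, against 1.54%. The median difference of the 5 tested members was -0.04 on 6 arrays and 0.73 on 5 arrays, beside -0.03 for all probe sets in both fits. These genes can vary together with the amount of fat on an array, so they are not independent of each other. In bulk tissue, fewer fat cells and less RNA per fat cell cannot be told apart.

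**Figure D2:**
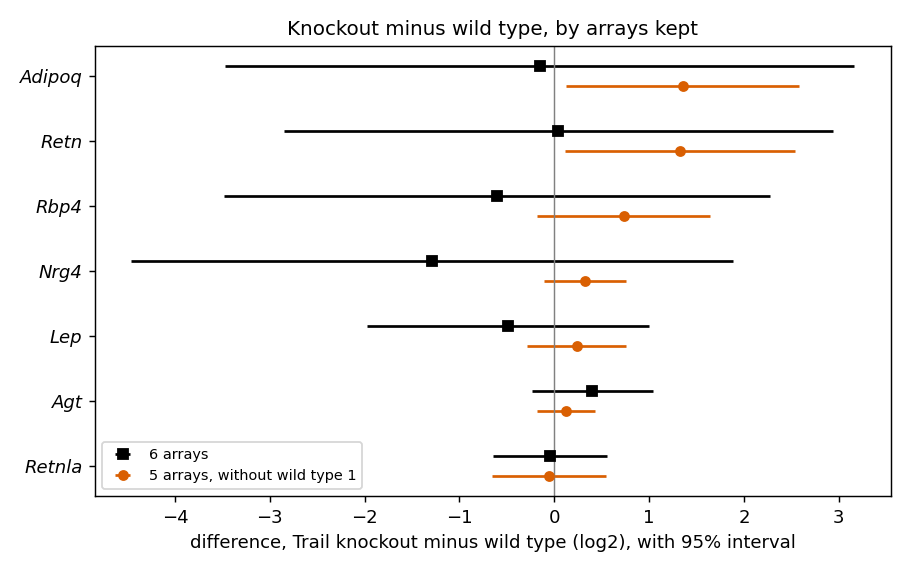
Knockout minus wild-type difference of each gene on the log2 scale with its 95% interval, from limma fits on 6 arrays (squares) and on 5 arrays without wild type 1 (circles). The 6-array intervals of all 7 genes include 0. On 5 arrays the unadjusted intervals of Adipoq (0.13 to 2.58) and Retn (0.11 to 2.54) lie above 0 and those of the other 5 include it.

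On wild type 1, 5 of the 7 genes were over 2-fold above every other array, as were 4.6% of the 23410 annotated probe sets (6.27% of those that passed the filter). The gap to the highest other array was 6.56-fold for Rbp4, 4.88-fold for Adipoq, 3.39-fold for Retn and 3.02-fold for Lep, beside the 19.9-fold of Nrg4. The same held for 18 of 21 white and general adipocyte genes and for 11 of 16 brown fat genes. The adipocyte list's median was 8.57 to 8.84 on the knockout arrays, against 11.94 on wild type 1 and 8.21 to 8.59 on wild type 2 and 3. The brown fat list's median was 6.36 to 6.50 on the knockout arrays, against 9.21 on wild type 1 and 6.21 to 6.53 on wild type 2 and 3. Ucp1, the defining uncoupling protein of brown fat, gave 12.32 on wild type 1 and 4.32 to 4.59 elsewhere. Its excess over the mean of the other 5 arrays, 7.84, was the largest of that list, whose median was 1.96. The smallest was that of Zic1, at -0.78, which gave 5.45 on wild type 1 and 5.79 to 6.49 elsewhere. The part of fat content in the adipokine values was not tested.

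The members differed in how far wild type 1 exceeded the mean of the other 5 arrays. That excess was 4.64 for Nrg4, 3.71 for Adipoq, 3.58 for Rbp4, 3.06 for Retn and 2.02 for Lep, of which those of Nrg4 and Lep are against arrays not shown to be above background. The 21 adipocyte genes ranged from 0.88 to 5.11 with a median of 3.29. One of them exceeded Nrg4, 7 exceeded Adipoq, 7 exceeded Rbp4, 13 exceeded Retn and 15 exceeded Lep. Agt, at -0.92, lay below all 21, and so did Retnla, whose signal there was level with the mean of the others. Macrophage markers had a median excess of 0.41, endothelial markers 1.40 and smooth muscle markers -0.19.

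**Figure D3:**
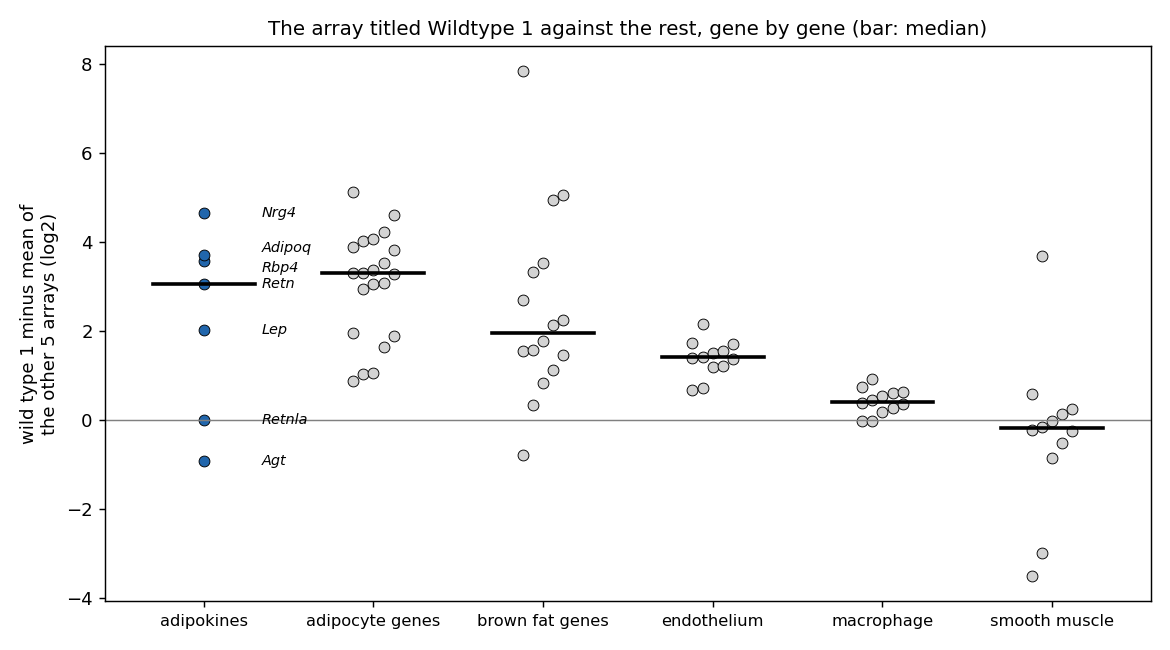
Signal on wild type 1 minus the mean of the other 5 arrays (log2), 1 point per gene, for the adipokines and 5 marker lists; bars are list medians. Nrg4, Adipoq, Rbp4, Retn and Lep fall within the range of adipocyte genes (0.88 to 5.11), whereas Agt and Retnla fall below it.

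Among the other 5 arrays, the members again fell into different patterns. Adipoq spanned 2.69 and Retn 2.25, each more than any of the 21 adipocyte genes, whose ranges ran from 0.26 to 2.18 with a median of 0.82. Rbp4 spanned 1.39, Retnla 0.83, Lep 0.75, Nrg4 0.65 and Agt 0.26. For Adipoq, knockout 1 was 1.42 and knockout 2 was 0.57 above the 5-array mean, while knockout 3 was -0.36, wild type 2 -1.27 and wild type 3 -0.35 from it. For Rbp4 knockout 2 was above knockout 1, at 0.86 and 0.54 from the mean. The 2 highest of the 5 arrays were knockout 1 and 2 for 5 of 7 members (Adipoq, Retn, Rbp4, Nrg4 and Lep), for 14 of 21 adipocyte genes, for 4 of 16 brown fat genes and for 14.2% of all probe sets tested. The same held for 8 of 13 hepatocyte genes, 4 of 12 endothelial genes and 0 of 12 macrophage genes. Knockout 1 also had the highest median of the lung epithelium list, 7.98 against 5.22 to 5.62 elsewhere, and knockout 2 that of the stomach list. The part of the other tissues in the difference was not tested.

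The genes most like Adipoq were sought by the root mean square difference between profiles, each centred on its own mean, over 12037 genes that passed the filter. Over 6 arrays the nearest was Cidec, a lipid droplet protein, with 0.16, followed by Cdo1 (0.34), a cysteine dioxygenase, Retn (0.34), Cyp2e1 (0.36), a cytochrome P450, and Fabp4 (0.37), the adipocyte fatty acid binding protein. Cidec gave 8.28, 7.59 and 6.77 on the knockout arrays, against 10.91, 6.10 and 6.73 on the wild-type arrays. Over the 5 arrays without wild type 1, the nearest were Cidec (0.17), Cyp2e1 (0.25), Cdo1 (0.26), Retn (0.26) and Hp (0.28), which encodes haptoglobin. Thus 4 of the 5 nearest genes were shared between the 2 searches, which have 5 arrays in common and are not independent. These distances describe 6 arrays that share 1 outlying array, and they carry no test.

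The neighbours of Lep lay at smaller distances. Distances are not scaled to the span of a gene, so smaller ones for Lep do not mean a closer likeness. Over 6 arrays they were Cgnl1 (0.075), the monoglyceride lipase gene Mgll (0.083), 4930402H24Rik (0.088), the aconitase gene Aco1 (0.10) and Mccc2 (0.11). Over 5 arrays they were Cx3cl1 (0.042), Slc39a14 (0.043), the TNF receptor gene Tnfrsf1b (0.045), Uba7 (0.049) and Cdh11 (0.049). No gene was in both lists. Over those 5 arrays Lep spanned 0.75 and Adipoq 2.69.

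Receptors were described next. Adipor1, which encodes an adiponectin receptor, gave 9.34, 9.35 and 9.37 on the knockout arrays, against 9.26, 9.44 and 9.40 on the wild-type arrays. Adipor2, the other adiponectin receptor gene, gave 9.44, 10.01 and 9.24 on the knockout arrays, against 11.50, 9.33 and 9.20. on the wild-type arrays The 2 receptor genes thus differed on wild type 1, where Adipor2 was the highest of the 6 arrays by 1.49 and Adipor1 the lowest. Cdh13, encoding T-cadherin, which binds adiponectin on endothelium and smooth muscle, lay between 7.40 and 7.85 on the knockout arrays and at 8.52, 7.87 and 7.86 on the wild-type arrays, with a difference of -0.45 (SE 0.23) on 6 arrays and -0.23 (SE 0.15) on 5.

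Lepr, the leptin receptor gene, was lowest on wild type 1, the array with the highest Lep. It gave 6.92, 6.56 and 7.26 on the knockout arrays, against 5.50, 7.31 and 7.02 on the wild-type arrays. Erbb3, a receptor gene of the neuregulin family, gave 8.998, 9.35 and 9.18 on the knockout arrays, against 7.01, 9.28 and 8.84 on the wild-type arrays. Erbb3 is also expressed by epithelial cells and Schwann cells. The Nrg4 receptor gene Erbb4 gave 5.59, 5.37 and 5.49 on the knockout arrays, against 6.43, 5.40 and 5.37 on the wild-type arrays. It was thus highest on wild type 1, as was Nrg4, and did not pass the filter. Stra6, a receptor for Rbp4, lay between 6.01 and 6.39 on all arrays. The angiotensin receptor gene Agtr1a gave 6.46, 6.23 and 6.35 on the knockout arrays, against 7.85, 6.39 and 6.24 on the wild-type arrays, so wild type 1 had the highest receptor signal and the lowest Agt signal. C3ar1, a receptor for a fragment of complement C3, lay between 6.82 and 7.42.

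**Figure D4:**
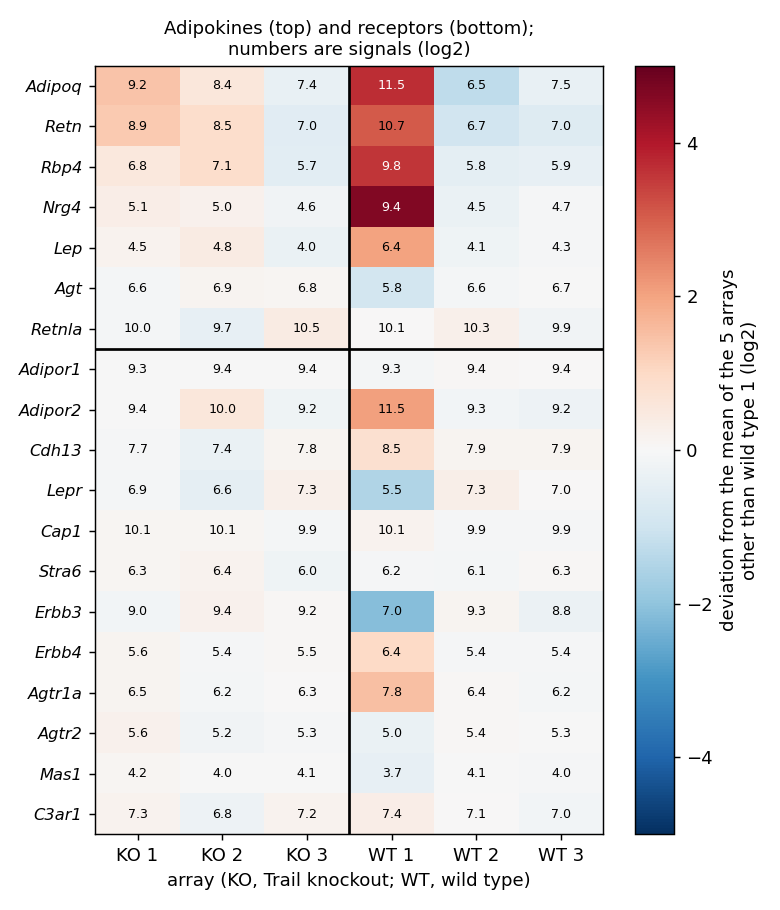
Log2 signals of the 7 adipokine genes and 12 receptor or binding partner genes on each array (numbers), coloured by deviation from the mean of the 5 arrays other than wild type 1. Wild type 1 is high for Adipor2 (11.5) and Agtr1a (7.8) and low for Lepr (5.5) and Erbb3 (7.0), and Adipor1 is even across arrays.

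Of the receptor and binding partner list, 0 of 9 tested genes passed in either direction, 4 had a positive and 5 a negative difference, and the median was -0.01 on 6 arrays and 0.05 on 5. In the renin-angiotensin list 0 of 7 passed, with a median of -0.09 on 6 arrays and 0.21 on 5. Mme, encoding neprilysin, which degrades angiotensins, gave 7.41, 6.88 and 6.81 on the knockout arrays, against 10.17, 6.56 and 6.99 on the wild-type arrays. Anpep, an aminopeptidase gene, was highest on knockout 2 at 9.35 and lay between 7.38 and 7.58 elsewhere. Ace, which makes angiotensin II, gave 7.47, 6.77 and 6.77 on the knockout arrays, against 7.80, 6.41 and 6.70. on the wild-type arrays Ctsd, a cathepsin gene of the list, gave 11.97 on wild type 1 and 11.50 to 11.61 elsewhere. Atp6ap2, the prorenin receptor gene, was like Agt lowest on wild type 1, at 8.44 against 8.90 to 9.22 elsewhere, as were the dim receptor genes Agtr2 (5.02) and Mas1 (3.67).

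The alternative complement list, to which adipsin belongs by function, had 0 of 7 tested genes past the threshold and a median of -0.17 on 6 arrays and -0.08 on 5. Cd59a, an inhibitor of the membrane attack complex, gave 7.53, 7.59 and 7.75 on the knockout arrays, against 9.32, 8.03 and 8.14 on the wild-type arrays. All 3 knockout values were below all 3 wild-type values, and groups did not overlap, in either direction, for 5.6% of all probe sets tested. The Cd59a difference was -0.88 (SE 0.36, limma adjusted p = 0.921) on 6 arrays and -0.46 (SE 0.12, limma adjusted p = 0.997) on 5. Cr1l, a complement regulator gene, lay between 7.73 and 8.10 on the knockout arrays and between 7.996 and 8.31 on the wild-type arrays, and Cfp, properdin, between 7.23 and 8.17 on the knockout arrays and between 7.82 and 7.98 on the wild-type arrays. Cfb, encoding factor B, the substrate of adipsin, gave 7.20, 6.69 and 6.52 on the knockout arrays, against 9.47, 6.80 and 6.53. on the wild-type arrays

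Retinoid genes had positive differences for 10 of 10 tested on 6 arrays and 7 of 10 on 5, with medians of 0.13 and 0.05, and 0 passed. Of all 14046 probe sets tested, 6105 had a positive difference on 6 arrays and 5850 on 5. Aldh1a1, an enzyme that makes retinoic acid, gave 10.83, 11.18 and 10.91 on the knockout arrays, against 8.24, 10.62 and 10.84 on the wild-type arrays. Its difference was 1.07 (SE 0.70) on 6 arrays and 0.24 (SE 0.14) on 5. Cyp26b1, which degrades retinoic acid, gave 6.35 on wild type 1 and 6.63 to 7.10 elsewhere. Rbp2 gave 9.39, 9.07 and 9.54 on the knockout arrays, against 4.62, 9.60 and 9.20 on the wild-type arrays. Crabp2 gave 10.35, 9.89 and 10.60 on the knockout arrays, against 5.66, 10.58 and 10.25 on the wild-type arrays. Rbp2 and Crabp2 encode cytosolic retinoid binding proteins, and both were lowest on wild type 1 together with the squamous epithelium list. Of that list, 15 of 15 genes were there over 2-fold below their lowest signal elsewhere, as were 1041 of the 14046 probe sets tested. Rbp4 had the opposite pattern to these intracellular carriers on that array. The part of epithelial tissue in these values was not tested.

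Genes of alternatively activated macrophages were set beside Retnla. Arg1, arginase 1, gave 8.62, 8.01 and 9.25 on the knockout arrays, against 4.89, 8.59 and 8.60 on the wild-type arrays. Chil4, a chitinase-like gene, gave 6.69, 10.32 and 8.41 on the knockout arrays, against 3.66, 7.74 and 6.96. on the wild-type arrays Mgl2, a macrophage lectin gene, gave 6.99, 6.61 and 7.22 on the knockout arrays, against 7.98, 7.34 and 7.04 on the wild-type arrays. Cd163, a scavenger receptor gene, gave 7.53, 6.76 and 7.56 on the knockout arrays, against 7.77, 7.75 and 7.50 on the wild-type arrays. Thus Arg1 and Chil4 were lowest on wild type 1 and Mgl2 and Cd163 highest, so the list had no common direction there. The squamous epithelium list was also lowest on wild type 1, with a median of 4.92 against 10.10 to 10.60 elsewhere. The part of epithelial or other tissue in the Arg1 and Chil4 values was not tested. None of the 7 tested genes of the list passed, and the list's median difference was -0.18 on 6 arrays and 0.03 on 5. The macrophage marker list had a median of 7.42 to 7.78 on the knockout arrays and 7.68 to 8.05 on the wild-type arrays. Its difference was negative for 11 of 11 tested genes on 6 arrays and on 5, with medians of -0.38 and -0.24, and 0 passed. Of all 14046 probe sets tested, 7941 had a negative difference on 6 arrays and 8196 on 5.

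Other secreted factors of fat were taken as a list. On wild type 1, 5 of 27 measured genes exceeded every other array over 2-fold, and 0 of 19 tested passed. The median difference was -0.09 on 6 arrays and -0.001 on 5. Nampt, visfatin, gave 8.82, 8.73 and 9.12 on the knockout arrays, against 10.40, 9.11 and 9.29 on the wild-type arrays, with a difference of -0.71 (SE 0.36) on 6 arrays and -0.31 (SE 0.15) on 5. C1qtnf9, a paralogue of adiponectin, differed by -0.57 (SE 0.37) and -0.17 (SE 0.18), Fstl1 by -0.22 (SE 0.15) and -0.26 (SE 0.14), and the Wnt antagonist gene Sfrp5 by 0.35 (SE 0.18) and 0.25 (SE 0.18). The limma adjusted p was 0.921 on 6 arrays and 0.997 on 5 for all 4 genes.

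Adipocyte transcription factors had negative differences for 11 of 12 on 6 arrays and 7 of 12 on 5, with medians of -0.58 and -0.005, and 0 passed. Of all 14046 probe sets tested, 7941 had a negative difference on 6 arrays and 8196 on 5. Ebf1 differed by -0.65 (SE 0.30), Cebpb by -0.34 (SE 0.21), Mlxipl by -0.87 (SE 0.66) and Ebf2 by -0.89 (SE 0.71) on 6 arrays. Without wild type 1 these values were -0.35, -0.12, -0.09 and -0.05. Pparg, the nuclear receptor of adipocyte differentiation, gave 7.76, 8.32 and 6.71 on the knockout arrays, against 11.13, 6.71 and 6.78 on the wild-type arrays. As for Rbp4, knockout 2 was above knockout 1. Genes of leptin and adiponectin signalling had a median of -0.07 on 6 arrays and -0.05 on 5, and 0 of 12 passed. In that list Irs1 gave 9.15 on wild type 1 and 7.06 to 7.29 elsewhere, and Ppara gave 8.98 and 6.64 to 6.93. Prkaa1 and Prkag1, which encode subunits of the kinase AMPK, differed by -0.23 (SE 0.15) and -0.27 (SE 0.19) on 6 arrays and by -0.09 and -0.08 on 5.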

How the data were processed

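Per the labels' protocols, RNA was extracted with Trizol and biotin-labelled for Affymetrix arrays of 1 colour. The authors deposited log2 values, 1 per array for each of 35399 probe sets. Base 2 was inferred from their range, 1.55 to 13.96. MAS5 is named in the submitters' processing notes, with no role, and no source used here gives the background correction, summary or scaling. The deposited values were analysed unchanged and without detection calls, so small differences of dim genes could depend on the authors' summary.

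The platform annotation named the probe sets. It covers 23410, of which 21789 have 1 gene symbol. Of 290 genes in the lists, 270 were found. A limma model of 2 groups (limma 3.58.1 under R 4.3.3, eBayes with trend) was fitted to the 14046 probe sets left after removing the lowest 40% by mean, and p-values were adjusted over them by Benjamini-Hochberg. Adjusted p-values of all genes named come from these limma fits. Lep, Nrg4 and Erbb4 were fitted without the filter. The script was tested on simulated data. The labels do not say whether arrays are separate animals, so p-values measure the spread between these arrays only, and 6 arrays limit the precision.

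The members and lists were chosen with earlier results of these data known. Named genes were the 7 measured members, their receptors, Erbb3, up to 4 genes of each pathway list with the lowest unadjusted p among those passing the filter, the 5 genes nearest Adipoq and Lep, leading markers of lists that a result touches, and Tnfsf10. Ucp1, Zic1, Des, Actg2, Itga8, Alb, Ahsg, Ttr, Apoa1, Ace, Atp6ap2, Agtr2, Mas1, Pparg, Retnlg and Retnlb were chosen after their values were seen. Alternatives were other filters, scalings, pseudocounts, eBayes settings, weights for arrays, the replicate number as a block, all probe sets, and leaving out each array. Same-numbered arrays were checked for pairing: their deviations from the group means correlated at 0.095, -0.23 and 0.20 across probe sets, so numbers were not taken as pairs.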

Additional observations from a re-analysis of the deposited data

How the results depend on the processing

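The count of probe sets past the threshold was 0 in all 19 settings, with 27 to 611 at an unadjusted p under 0.05, and the count of members past it was 0 in each. The lowest adjusted p of a member was 0.767 to 0.997 per setting. No call was therefore lost or gained, and 0 calls say nothing about stability. Leaving out 1 array of the 6 moved the difference between -1.14 and 1.36 for Adipoq, -0.68 and 1.33 for Retn, -1.29 and 0.73 for Rbp4, -2.16 and 0.32 for Nrg4, -0.89 and 0.23 for Lep, -0.27 and 0.15 for Retnla, and 0.12 and 0.56 for Agt. Agt kept its sign in 19 of 19 runs. Changes of the filter, the eBayes setting or the probe sets kept cannot move a difference, so those runs could not turn it. The Agt difference was 0.058 with array weights and 0.12 without wild type 1. With array weights, which weight down arrays that deviate more, the sign turned for Adipoq (1.26), Rbp4 (0.71), Lep (0.13), Nrg4 (0.096) and Retnla (0.072), and Retn was 1.39. It also turned with a pseudocount of 64 for Retn (-0.082) and with quantile normalization for Retnla (0.011). The cause was not tested for these. The replicate block left every difference as it was, such as -0.15 for Adipoq, since each number occurs once in each group, and gave 73 probe sets at an unadjusted p under 0.05. Further settings on the 5 arrays without wild type 1 were chosen after seeing the data. Leaving out 1 more array gave 0.90 to 1.82 for Adipoq, 0.94 to 1.88 for Retn, 0.45 to 1.14 for Rbp4, 0.067 (without knockout 2) to 0.44 for Lep, 0.19 to 0.47 for Nrg4, 0.072 to 0.20 for Agt, and -0.28 to 0.15 for Retnla, whose sign turned without knockout 2 (0.14) or wild type 2 (0.15). A pseudocount of 64 gave 0.062 for Lep, 0.097 for Nrg4 and 0.076 for Agt on those arrays. Where 1 wild-type array was left, it was assumed to vary like the others.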
